A study of Homo sapiens with 8 samples.

Results

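Alcohol dehydrogenases (ADH) and aldehyde dehydrogenases (ALDH) were followed in RNA-seq of Hep3B cells, a human hepatocellular carcinoma line, through 10 genes: ALDH3B1, ALDH1A1, ALDH1B1, ALDH2, ALDH3A2, ALDH4A1, ALDH6A1, ADH4, ADH5 and ADH6. They were chosen by name with earlier results of these libraries in view, the levels of the knockout comparison among them, so the values of that comparison are a description. All 10 are in both deposited tables, among 16169 genes in either table and 14826 in both. Of 17 other genes of the same families, 14 are in the knockout table and 10 in the small interfering RNA (siRNA) table.
The 8 libraries fell into 4 conditions of 2 libraries each. Hep3B was wild type. The libraries labelled SOX4 knockout came from Hep3B lines made with CRISPR/Cas9 and grown in medium with puromycin, and the drug and the making of the lines cannot be told apart from the loss of SOX4. The methods name both knockout lines as the source of these data, but the labels do not say which library is which line, so differences between lines and between libraries cannot be told apart. The siRNA libraries were Hep3B cells that received control siRNA, which the study calls scramble, or STAT6 siRNA. SOX4 and STAT6 are transcription factors, and the design asks which transcripts differ when either is removed or lowered. The labels do not say that libraries of a condition came from separate cultures, so p-values measure only the spread between these libraries. The totals were 18484804 and 18123854 expected counts in Hep3B, 25353113 and 18924814 in SOX4 knockout, 18096907 and 20272261 in control siRNA, and 16266282 and 22037721 in STAT6 siRNA. Levels are CPM, read counts scaled to the size of the library with TMM factors (trimmed mean of M values), with library 1 given first and library 2 second. A gene was called at a Benjamini-Hochberg adjusted p below 0.05 in edgeR's quasi-likelihood test, with each table fitted alone over all its genes.
Alcohol dehydrogenases oxidise alcohols such as ethanol and retinol to aldehydes, using NAD+. Aldehyde dehydrogenases then oxidise the aldehydes to acids, and the liver, where hepatocytes hold many enzymes of both families, clears most ingested ethanol by this route. Other members act on aldehydes made inside the cell, from retinol, membrane lipids, sphingolipids, proline, valine or formaldehyde.
SOX4 was at 799 and 266 CPM in Hep3B and at 298 and 302 CPM in those labelled SOX4 knockout. The groups overlapped (log2 fold change -0.83, standard error 0.54, adjusted p = 0.372 from edgeR), so the transcript level does not check the label. The study examined SOX4 protein in its knockout cells by western blot, and protein is not measured in these libraries. STAT6 was at 32.0 and 13.2 CPM in Hep3B and fell to 2.76 and 2.20 in the knockout (log2 fold change -3.18, standard error 0.57, adjusted p = 0.0275 from edgeR). That call was lost when either knockout library was left out, as were most calls of the whole table. The log2 fold change was -3.35 without SOX4 knockout library 1 and -3.05 without library 2. It was -2.46 without Hep3B library 1 and -3.68 without Hep3B library 2. Among the siRNA libraries STAT6 was at 42.5 and 31.4 CPM with control siRNA and at 9.92 and 5.98 with STAT6 siRNA, with a log2 fold change of -2.22, its standard error 0.72 and an adjusted p = 1.00 from edgeR. Both siRNA libraries lay below both controls, although no gene of that table was called.
The promoter-side sequences of ALDH3B1, ADH6 and ADH5 show the 2 genes that were called in the knockout beside a neighbour of ADH6 in the ADH cluster that was not. Each is the 250 bases before a RefSeq start site on GRCh38.p14, written 5′ to 3′ on the gene's strand, with CpG dinucleotides in capitals. The window of ALDH3B1 is chr11:68010077-68010326 on the plus strand, that of ADH6 is chr4:99219247-99219496 on the minus strand, and that of ADH5 is chr4:99088789-99089038 on the minus strand. Most ALDH3B1 transcripts of the deposited tables begin at 68010305, inside this window, and NM_001161473 begins upstream of it, at 68008547.
ALDH3B1: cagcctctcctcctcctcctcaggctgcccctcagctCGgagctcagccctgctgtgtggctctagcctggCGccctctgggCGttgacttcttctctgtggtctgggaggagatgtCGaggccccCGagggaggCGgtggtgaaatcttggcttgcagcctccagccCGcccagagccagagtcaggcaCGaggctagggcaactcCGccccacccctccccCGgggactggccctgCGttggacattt
ADH6: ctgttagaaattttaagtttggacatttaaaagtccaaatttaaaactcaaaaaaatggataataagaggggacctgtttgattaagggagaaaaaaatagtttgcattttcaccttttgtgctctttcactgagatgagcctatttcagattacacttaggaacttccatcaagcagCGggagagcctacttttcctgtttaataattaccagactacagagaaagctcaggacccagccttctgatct
ADH5: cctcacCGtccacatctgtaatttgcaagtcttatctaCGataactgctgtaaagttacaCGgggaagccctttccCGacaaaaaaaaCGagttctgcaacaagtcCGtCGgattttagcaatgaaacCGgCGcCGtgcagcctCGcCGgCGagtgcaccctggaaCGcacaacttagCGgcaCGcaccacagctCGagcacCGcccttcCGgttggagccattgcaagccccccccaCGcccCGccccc
The printed ALDH3B1 window held 11 CpG dinucleotides, the median of 35114 windows of the same length, and 66.8% G or C, where that median was 58%. A second ALDH3B1 window, before the start at 68008547, held 3 CpG and 63.6% G or C. The ADH6 window held 1 CpG and 36.4% G or C, and the ADH5 window 21 and 58.0%. In the same cluster on chromosome 4 the windows of ADH4, ADH1A and ADH1B held 1 CpG each and that of ADH1C held 6. RefSeq windows were matched for 9 of the 10 genes, ALDH2 having no matched window, and for 21 of all 27 family genes.
In these windows 4 letter patterns were searched on both strands, and overlapping matches were counted. AACAAAG, 1 form of the core bound by SOX factors, occurs in 4.50% of the 35114 windows. The study describes a looser SOX4 site, where either A or T is allowed at several positions. AACAAAG is 1 sequence of that kind and the others were not searched, so this share and the matches below leave them out. TTCNNNNGAA, the spacing bound by STAT6, occurs in 5.38%. GTTAAT, a part of the HNF1 site, occurs in 6.23% and TATAAA, the TATA box, in 10.7%. Of the 9 genes with a window, ADH4 had 1 AACAAAG, 1 GTTAAT and 2 TATAAA matches, and the other 8 had no match to any of the 4 patterns. A match or its absence in these letters is a description of the window only.
ALDH3B1 (chr11:68008547-68029283, plus strand, as the tables give it on hg38) encodes an enzyme that oxidises medium- and long-chain aldehydes such as those released by lipid peroxidation, and is held at membranes by lipid anchors. It was at 1.08 and 1.37 CPM in Hep3B and at 42.3 and 32.1 CPM in SOX4 knockout. Both knockout libraries lay far above both Hep3B libraries, and the ratio of the means was 30.4-fold. The log2 fold change was 4.92 (standard error 0.46), from 45 counts in the Hep3B libraries together and 1700 in the knockout libraries. It was 4.69 to 5.09 with each library left out in turn, and the gene was called in each of the 13 alternative analyses run, with 4.33 the lowest value.
In the siRNA table ALDH3B1 was low in every library, at 2.54 and 1.33 CPM with control siRNA and 4.34 and 1.44 CPM with STAT6 siRNA. These groups overlapped (log2 fold change 0.57, standard error 0.82, adjusted p = 1.00 from edgeR). With 1 library left out the log2 fold change lay between -0.42 (without STAT6 siRNA library 1) and 1.18 (without control siRNA library 1), so it took either sign. In both siRNA conditions library 1 was above library 2. The difference between the 2 effects, knockout minus siRNA, was 4.22 on the log2 scale (standard error 0.97), and ran from 3.60 without STAT6 siRNA library 2 to 5.27 without STAT6 siRNA library 1. None of the 10 genes was called in that contrast in the main fit of all 8 libraries, where 11 of 14313 genes were called (0.0769%). With the library number added to that fit as a block, ALDH3B1 was called, among 97 genes (0.678%).
The tables list 5 transcripts of ALDH3B1 in the knockout experiment and 4 in the siRNA experiment. Those starting at 68010305 held 97.1% and 97.1% of the gene's counts in Hep3B and 97.2% and 98.1% in SOX4 knockout. NM_001161473, from the other start, was at 0.555 and 0.763 expected counts in Hep3B and at 31.4 and 11.1 in the knockout, so counts from both starts were higher there. Among the transcripts from 68010305, NM_000694 held 7.87% and 7.91% of the counts in Hep3B and 55.6% and 45.9% in the knockout. NM_001030010 held 55.6% and 55.8% in Hep3B and 35.9% and 46.7% in the knockout. The Hep3B shares are estimates over 19 and 26 counts and the split between transcripts with shared exons is uncertain.
The 5 genes with levels most like those of ALDH3B1 were SERPINF1, PHLDA3, ADAMTSL2, C1orf116 and CTSF, with Pearson r of 0.990, 0.988, 0.987, 0.985 and 0.983 for log2 CPM over the 8 libraries, among 10972 genes tested in both tables with a mean of at least 100 counts. The points share libraries and depth, and the 2 knockout libraries set them apart. SERPINF1, which encodes the secreted protein PEDF, was at 102 and 107 CPM in Hep3B and at 909 and 682 in the knockout. CTSF, a lysosomal cysteine protease, was at 0.795 and 0.369 CPM in Hep3B and at 34.8 and 25.3 in the knockout. In the siRNA experiment CTSF was at 1.75 and 0.889 CPM with control siRNA and at 2.87 and 1.15 with STAT6 siRNA, again higher in library 1 of each condition.

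**Figure D1:**
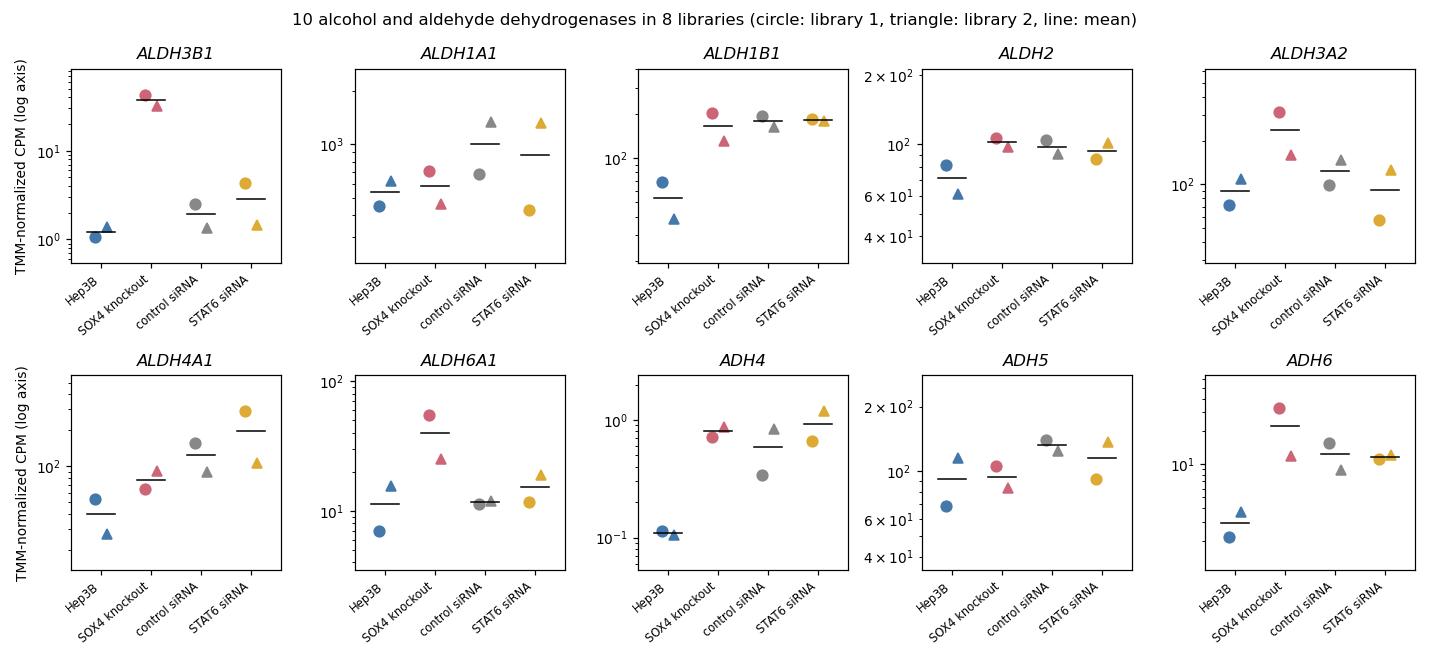
TMM-normalized CPM of each gene (vertical log axis, one panel per gene with its own range) in the 8 libraries, by condition (horizontal). Circles are library 1, triangles library 2 and lines the mean of 2. ALDH3B1 sits at 42.3 and 32.1 in SOX4 knockout and at 1.08 to 4.34 in the other 6 libraries.

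Of the 10 genes, 2 were called in the knockout, ALDH3B1 and ADH6, both higher. Over all genes tested, 849 of 14415 were called (5.89%), 648 of them higher (4.5%), and since the genes were chosen with this comparison known nothing is read from their count. Both knockout libraries lay above both Hep3B libraries for 8 of the 10, where 30.6% of all genes tested did so and 27.4% lay below. The median log2 fold change of the 10 genes was 1.51, beside 0.0082 over all genes tested. All 10 fold changes were above 0 with TMM scaling, and 9 of 10 with median-of-ratios scaling, where ADH5 was at -0.01. With STAT6 siRNA 0 of 10 were called, as were 0 of 13554 genes (0%) by edgeR and by DESeq2, with 14 genes at an unadjusted p below 0.05 in edgeR and 16 in DESeq2. Those fits ignore the library number, and STAT6 itself was not called in them, so they do not show a lack of response. With the library number as a block 62 genes were called (0.457%) and 0 of the 10. With the block and offsets for GC content and length 350 were (2.58%), with 1 of the 10, ALDH6A1. None of the 10 had both STAT6 siRNA libraries beyond both controls, where 2.74% of all genes tested were above and 5.26% below.
The alcohol dehydrogenases lie in a cluster on chromosome 4. ADH6 (chr4:99202638-99219247, minus strand), an enzyme of liver whose substrates are poorly known, was at 2.16 and 3.64 CPM in Hep3B and at 32.5 and 12.0 CPM in SOX4 knockout. Both knockout libraries were above both Hep3B libraries, and library 1 was the highest (log2 fold change 2.94, standard error 0.62). Without SOX4 knockout library 1 the value was 2.06 and without library 2 it was 3.44. The call was lost in both cases, as were most calls of the whole table. In the siRNA libraries ADH6 was at 15.7 and 8.98 CPM with control siRNA and at 11.2 and 12.2 with STAT6 siRNA, which overlapped, and the control siRNA libraries stood above the Hep3B libraries of the other table. Tables were normalized separately, so levels across them are set side by side only.
ADH4 (chr4:99123657-99144299, minus strand), which oxidises ethanol at high concentrations and retinol, was near the detection limit. It was at 0.114 and 0.105 CPM in Hep3B and at 0.719 and 0.880 in the knockout, from 4 and 35 counts. The ratio of the counts per library size was 7.18 (95% exact interval 2.57 to 27.8, counting error only). It was at 0.339 and 0.844 CPM with control siRNA and at 0.661 and 1.20 with STAT6 siRNA, and these groups overlapped.
ADH5 (chr4:99070979-99088789, minus strand) is the glutathione-dependent formaldehyde dehydrogenase found in most tissues, and also reduces S-nitrosoglutathione. It was at 69.2 and 115 CPM in Hep3B and at 105 and 83.2 in the knockout, so the groups overlapped (log2 fold change 0.04, standard error 0.38). With control siRNA it was at 140 and 125 CPM and with STAT6 siRNA at 91.9 and 137, again overlapping (log2 fold change -0.21, standard error 0.57). It had the smallest knockout change of the 10 genes under TMM scaling, and with 1 library left out both values took either sign (-0.34 to 0.44 in the knockout and -0.53 to 0.06 with STAT6 siRNA).
The enzymes that remove acetaldehyde in mitochondria are ALDH2, the main one, and ALDH1B1. ALDH2 (chr12:111766887-111809986, plus strand) was at 81.8 and 61.1 CPM in Hep3B and at 107 and 97.4 in the knockout, a small difference with no overlap (log2 fold change 0.51, standard error 0.34). It was at 104 and 91.2 CPM with control siRNA and 86.3 and 102 with STAT6 siRNA. ALDH1B1 (chr9:38392664-38398666, plus strand) was at 69.0 and 38.7 CPM in Hep3B and at 202 and 130 in the knockout. Both knockout libraries were higher (log2 fold change 1.63, standard error 0.43), yet the gene was not called in the main fit. DESeq2 called it, as it did 15% of all genes, and so did edgeR with the library number as a block, where 6.81% of all genes were called. Most of the 13 alternatives did not call it. With 1 library left out its log2 fold change ran from 1.26 to 2.04. It was at 194 and 163 CPM with control siRNA and at 184 and 178 with STAT6 siRNA, and these 4 values lay within the range of the knockout libraries of the other table.
ALDH1A1 (chr9:72900662-72953318, minus strand), a cytosolic enzyme that makes retinoic acid from retinaldehyde, was the most abundant of the 10. It was at 449 and 621 CPM in Hep3B and at 704 and 462 in the knockout, and the groups overlapped (log2 fold change 0.12, standard error 0.43). With control siRNA it was at 677 and 1338 CPM and with STAT6 siRNA at 427 and 1315, so library 2 was far above library 1 in both conditions. Its log2 fold change there was -0.21 (standard error 0.65), with a sign that turned when 1 library was left out, from -1.24 without STAT6 siRNA library 2 to 0.39 without STAT6 siRNA library 1. In the knockout it also turned, from -0.20 to 0.37.
ALDH3A2 (chr17:19648751-19677596, plus strand) is the fatty aldehyde dehydrogenase of the endoplasmic reticulum, lost in Sjögren-Larsson syndrome. It was at 72.0 and 109 CPM in Hep3B and at 314 and 159 in the knockout (log2 fold change 1.39, standard error 0.44), without overlap and without a call in edgeR. With 1 library left out the value ran from 0.83 to 1.76. DESeq2 called the gene, as it did 15% of all genes. With control siRNA it was at 98.2 and 148 CPM and with STAT6 siRNA at 57.2 and 125, and the groups overlapped.
ALDH4A1 and ALDH6A1 act in mitochondrial amino acid breakdown. ALDH4A1 (chr1:18871430-18902800, minus strand), the last step of proline breakdown to glutamate, was at 53.3 and 26.9 CPM in Hep3B and at 63.9 and 90.5 in the knockout (log2 fold change 0.95, standard error 0.43). With 1 library left out its log2 fold change in the knockout ran from 0.53 to 1.46. ALDH4A1 was at 157 and 89.5 CPM with control siRNA and at 287 and 107 with STAT6 siRNA, with library 1 above library 2 in both. ALDH6A1 (chr14:74057665-74084494, minus strand), which handles methylmalonate semialdehyde from valine and thymine, was at 6.98 and 15.5 CPM in Hep3B and at 55.2 and 25.1 in the knockout (log2 fold change 1.84, standard error 0.55). The ALDH6A1 value was 1.17 without SOX4 knockout library 1, 1.31 without Hep3B library 1 and 2.52 without Hep3B library 2, the last with a call. In edgeR with all libraries neither gene was called, although the knockout libraries lay above Hep3B for both. DESeq2 with all libraries called ALDH6A1, as it did 15% of all genes. ALDH6A1 was at 11.3 and 12.0 CPM with control siRNA and at 11.6 and 19.0 with STAT6 siRNA. In that comparison it was called only with the library number and offsets together, where 2.58% of all genes were. BBOF1, which overlaps ALDH6A1 on the opposite strand over 26014 bases, was at 0.908 and 1.58 CPM in Hep3B, against 2.01 and 0.990 in the knockout. Whether the counting used strand is not given in the sources used here.

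**Figure D2:**
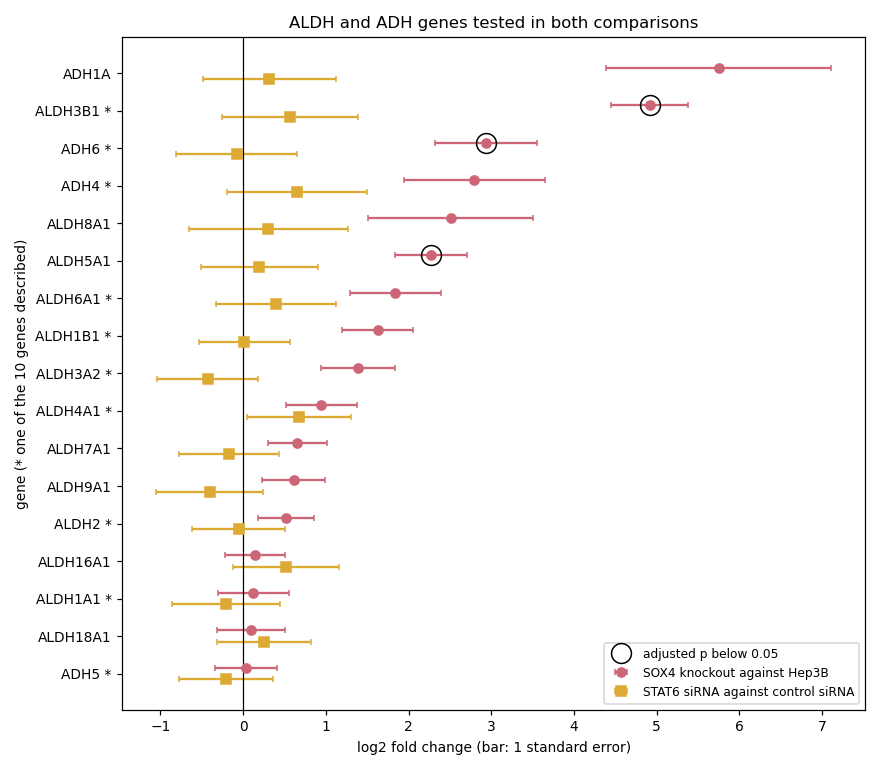
Log2 fold change (horizontal, bars of 1 standard error) of the ALDH and ADH genes tested in both comparisons, ordered by the knockout value (vertical). Rings mark an adjusted p below 0.05. ALDH3B1 at 4.92, ADH6 at 2.94 and ALDH5A1 at 2.27 carry rings in the knockout, and no gene carries one with STAT6 siRNA.

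Levels of different genes were compared per length, as CPM divided by mean transcript length and scaled so that all genes of a library add up to the same sum as for CPM. In Hep3B the order of the mean levels was ALDH1A1 at 588, ADH5 at 81.9, ALDH2 at 80.7, ALDH3A2 at 58.3, ALDH1B1 at 39.7, ALDH4A1 at 29.8, ALDH6A1 at 5.90, ADH6 at 2.61, ALDH3B1 at 1.17 and ADH4 at 0.126. Neighbours whose libraries overlapped were ADH5 and ALDH2, ALDH3A2 and ALDH1B1, ALDH1B1 and ALDH4A1, and ALDH6A1 and ADH6. In SOX4 knockout ALDH1A1 was again the highest at 638, and ALDH3B1 stood at 35.3, between ALDH4A1 at 57.5 and ALDH6A1 at 21.0. The libraries of ALDH3B1 and ALDH6A1 overlapped there. In the siRNA table ALDH1A1 was the highest in both conditions, at 1050.3 with control siRNA and 875 with STAT6 siRNA. ALDH3B1 was next to last in both, at 1.60 and 2.04, above ADH4 at 0.661 and 0.945, and with STAT6 siRNA the libraries of these neighbours overlapped.
Of the 17 other family genes, 7 were tested in the knockout table and 1 was called, beside 5.89% of all genes tested. ALDH5A1, which oxidises succinic semialdehyde from the neurotransmitter GABA, was at 9.36 and 10.9 CPM in Hep3B and rose to 63.5 and 34.4 in the knockout (log2 fold change 2.27, standard error 0.43, adjusted p = 0.0319 from edgeR). That call was lost when either knockout library was left out, as were most calls of the whole table. The log2 fold change was 1.77 without library 1 and 2.61 without library 2. ALDH5A1 was at 12.4 and 17.2 CPM with control siRNA and at 14.6 and 19.2 with STAT6 siRNA.
The class I alcohol dehydrogenases, the main ethanol oxidisers of adult liver, were close to 0 in Hep3B. ADH1A was at 0.0568 and 0.158 CPM in Hep3B and at 11.4 and 0.935 in the knockout, where library 1 carried most of the signal (300 of 317 counts). The count ratio was 65.0 (95% exact interval 25.1 to 240.0, counting error only), and the adjusted p was 0.0512 in edgeR's test. ADH1B had no counts in Hep3B and was at 3.33 and 0.220 CPM in the knockout. The knockout mean was at least 10.8-fold higher than a floor of 3 counts in each Hep3B library. Nearly all of its knockout counts were also in library 1 (88.3), and the 3.59 in library 2 give no bound on their own. ADH1C was at 0 and 0.0527 CPM in Hep3B, against 0.644 and 0 in the knockout. The 3 genes are near-identical copies, so the division of reads among them is uncertain.
ALDH8A1, an enzyme of tryptophan breakdown, was at 2.89 and 5.64 CPM in Hep3B and at 3.79 and 45.0 in the knockout, so a single knockout library stood apart (adjusted p = 0.165 from edgeR). Unlike ADH1A, it was the second library that was high. ALDH7A1, which acts in lysine breakdown, and ALDH9A1, which oxidises aminoaldehydes, had both knockout libraries above both Hep3B libraries, with log2 fold changes of 0.66 (standard error 0.36) and 0.61 (standard error 0.38) and no call. ALDH18A1, which makes the precursor of proline, was at 128 and 62.3 CPM in Hep3B and at 98.1 and 105 in the knockout, and it overlapped between the groups, as did ALDH16A1. ADH1B, ADH1C, ALDH1A2, ALDH1A3, ALDH1L2, ALDH3A1 and ADHFE1 were too low to test, and ALDH1L1, ALDH3B2 and ADH7 were not among the genes of the knockout table. With STAT6 siRNA 8 of these 17 genes were tested and 0 were called, ALDH1A2 and ALDH3A1 were too low to test, and the other 7 were not among the genes of that table. ALDH9A1 was at 32.8 and 35.4 CPM with control siRNA and at 22.5 and 28.9 with STAT6 siRNA, the one of the 8 with both STAT6 siRNA libraries below both controls, and ADH1A, at 0.735 and 0.578 and at 0.808 and 0.825, the one with both above.
Genes that feed or drain the same reactions were counted in 6 lists, and with STAT6 siRNA each list had 0 calls. In the knockout the counts of each list stand beside 5.89% of all genes tested called in either direction and 4.5% called higher, with a median of 0.0082 over all genes. In ethanol and acetaldehyde handling, 2 of 6 tested genes were higher in the knockout, with a list median log2 fold change of 0.95. Catalase (CAT), which can also oxidise ethanol, was at 51.1 and 48.3 CPM in Hep3B and rose to 193 and 124 (log2 fold change 1.67, standard error 0.37, adjusted p = 0.0430 from edgeR). ACSS2, which turns acetate into acetyl-CoA, was at 45.0 and 69.1 CPM and rose to 168 and 184 (log2 fold change 1.62, standard error 0.37, adjusted p = 0.0464 from edgeR).
In retinoid handling and response, 2 of 25 tested genes were higher and 0 lower, a share near that of all genes, with a median of 0.57. RDH5, a retinol dehydrogenase, rose from 0.341 and 0.422 CPM in Hep3B to 7.12 and 3.46 in the knockout (adjusted p = 0.0323 from edgeR). The retinoic acid receptor RARG rose from 1.08 and 0.686 CPM to 4.96 and 8.36 (adjusted p = 0.0430 from edgeR). ALDH1A1, the retinoic acid enzyme among the 10, overlapped between the same libraries. In valine and branched chain amino acids, 1 of 23 was higher and 1 lower, again near the share of all genes, with a median of 0.49. ABAT, which turns GABA into the succinic semialdehyde that ALDH5A1 oxidises, rose from 47.6 and 39.3 CPM to 250.2 and 318 (log2 fold change 2.71, standard error 0.37, adjusted p = 0.0159 from edgeR). BCAT1, the cytosolic branched chain aminotransferase, fell from 109.5 and 180 CPM to 18.8 and 11.8 (log2 fold change -3.24, standard error 0.44, adjusted p = 0.0161 from edgeR).
In formaldehyde and S-nitrosoglutathione handling, 1 of 9 tested genes was higher and 2 lower, with a median of -0.09. SARDH, which releases formaldehyde from sarcosine, rose from 5.62 and 3.06 CPM to 25.5 and 15.9 (adjusted p = 0.0468 from edgeR). The carbonyl reductase CBR1 fell from 8.46 and 25.0 CPM to 0.0379 and 0, that is, from 622 counts to 1 (adjusted p = 0.0111 from edgeR). Glutathione reductase (GSR) fell from 163 and 193 CPM to 48.4 and 71.6 (adjusted p = 0.0494 from edgeR). No gene was called among 12 tested for fatty aldehyde and sphingosine degradation (median 0.39) or among 10 tested for proline and hydroxyproline (median 0.64), where 8 and 7 were above 0. By mean CPM over the 8 libraries the most abundant fatty aldehyde and sphingosine genes were the sphingosine kinases SPHK2 and SPHK1, although AGPS was the most abundant in the knockout table, and PYCR1, an enzyme of proline synthesis, led the proline list. SPHK2 was at 76.3 and 67.9 CPM in Hep3B, against 108 and 83.8 in the knockout, and SPHK1 at 122.8 and 59.3, against 117 and 118. PYCR1 was at 53.1 and 174 CPM in Hep3B, against 45.0 and 89.5 in the knockout. With either knockout library left out most calls of the whole table were lost, and with them most of those of the 9 pathway genes called. The 9 kept the direction of their change. With offsets for GC content and length ACSS2, RARG and SARDH lost their call (adjusted p = 0.0783, 0.0616 and 0.0830 from edgeR), and with all 8 libraries in 1 fit CAT, ACSS2, RARG, SARDH and GSR did (adjusted p = 0.0746 to 0.131 from edgeR). The main log2 fold changes of these 5 genes, in that order, were 1.67, 1.62, 2.91, 2.26 and -1.57. With all 8 libraries in 1 fit they were 1.61, 1.56, 2.85, 2.20 and -1.63. With the offsets ACSS2, RARG and SARDH were at 1.33, 2.40 and 1.67. GSR also lost its call with no filter and with at least 10 counts in every library (adjusted p = 0.0535 and 0.0550 from edgeR), SARDH with at least 10 counts (0.0520) and ACSS2 without Hep3B library 1 (0.0573).
The liver origin of the cells was checked on 16 hepatocyte markers, which were all in both tables and tested. Their summed level was 19908 and 14630 CPM in Hep3B, against 59752 and 35952 in the knockout, with ALB the most abundant. In the knockout 4 of 16 were called higher (APOA1, APOH, TTR and FGB), 14 of 16 were above 0 and the median log2 fold change was 1.28, where 4.5% of all genes tested were called higher and 50.4% were above 0. These 4 calls were lost when either knockout library was left out, as were most calls of the whole table. Without SOX4 knockout library 1 their log2 fold changes were 1.61, 2.26, 2.34 and 1.57, in that order. Without library 2 they were 2.89, 3.84, 3.62 and 3.07. APOA1 also lost its call with offsets for GC content and length (log2 fold change 1.75, adjusted p = 0.0917 from edgeR) and, like FGB, with all 8 libraries in 1 fit (adjusted p = 0.0696 and 0.0948 from edgeR) and with the library number and offsets together (adjusted p = 0.137 and 0.0512 from edgeR). The sum was 21920 and 21019 CPM with control siRNA and 25169 and 25465 with STAT6 siRNA, with 0 called. The part of these markers in the dehydrogenase values was not tested. In bulk RNA a larger share of cells with a transcript and more of it per cell cannot be told apart.
Of 5 stellate and fibroblast markers, 3 were in the knockout table and all were tested, with a sum of 4.43 and 7.44 CPM in Hep3B, against 101 and 77.5 in the knockout. LUM, which encodes lumican, was at 0.624 and 0.738 CPM in Hep3B, the lowest of the 3 there. It was at 85.5 and 54.2 in the knockout, the highest of the 3 there. PDGFRB was at 2.84 and 1.27 CPM in Hep3B and at 9.88 and 13.9 in the knockout. Both were called higher. When either knockout library was left out LUM kept its call, and PDGFRB, like most genes called, did not. PDGFRB also lost its call with offsets for GC content and length, with no filter, with at least 10 counts in every library and with all 8 libraries in 1 fit (adjusted p = 0.0660, 0.0503, 0.0508 and 0.0595 from edgeR), and with the library number and offsets together (0.103). Its log2 fold change was 2.53 in the main fit and 2.14, 2.54, 2.56, 2.48 and 2.19 in these analyses. COL1A2 and DCN were not in that table. Leukocyte markers summed to 44.2 and 29.6 CPM in Hep3B, against 76.5 and 96.9 in the knockout, nearly all from CD68, with PTPRC at 0.227 CPM or less and CD3E not in the table. Of 3 endothelial markers, PECAM1 was at 0.770 CPM or less, and VWF and CDH5 were not in the table. Of 3 erythroid markers, HBA1 was at 0.495 CPM or less. The 5 cholangiocyte and epithelial progenitor markers summed to 967 and 687 CPM in Hep3B, against 1042 and 1208 in the knockout, with 0 called. EPCAM was the most abundant of them in Hep3B and KRT19 in the knockout. With STAT6 siRNA no marker of any list was called, and 0 genes were called in all.
In the siRNA experiment libraries 1 and 2 of a condition differed with the base composition of the genes. Across 13405 genes the log2 ratio of library 2 to library 1 correlated with GC content at a Spearman rho of -0.754 in control siRNA and -0.819 in STAT6 siRNA, values over genes that share these libraries. In the knockout table the values were -0.088 in Hep3B and 0.286 in SOX4 knockout, over 14237 genes. ALDH3B1, with 61.6% G or C in its transcripts, differed by -0.88 (library 2 minus library 1, log2 CPM) in control siRNA and by -1.52 in STAT6 siRNA. ALDH4A1, with 60.3%, differed by -0.81 and -1.42. ALDH1A1, with 41.9%, differed by 0.98 and 1.62. ADH4, with 40.4%, differed by 1.10 and 0.77, and ALDH3A2, with 44.2%, by 0.59 and 1.13. ALDH6A1, with 43.1%, differed by 0.08 and 0.70. Against this order in control siRNA, ADH6, with 43.6%, differed by -0.80 and ADH5, with 41.0%, by -0.16. In STAT6 siRNA ADH6 and ADH5 differed by 0.12 and 0.58. The differences of ALDH3B1, ALDH4A1 and ALDH1A1 are as large as or larger than the log2 fold changes of the same genes between STAT6 siRNA and control siRNA, and their part in those fold changes was not tested.

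**Figure D3:**
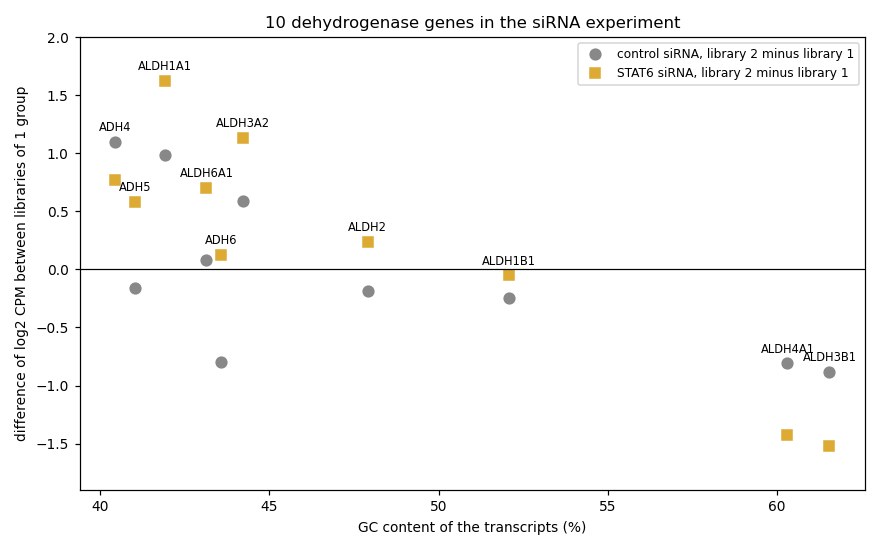
Difference of log2 CPM between library 2 and library 1 of a condition (vertical) against the GC content of each gene's transcripts in percent (horizontal) for the 10 genes, grey circles for control siRNA and yellow squares for STAT6 siRNA. ALDH3B1 and ALDH4A1, with over 60% G or C, lie below 0 in both conditions and ALDH1A1 lies above 0 in both.

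Within library numbers the change of ALDH3B1 between STAT6 siRNA and control siRNA was 0.75 for library 1 and 0.11 for library 2. In the knockout it was 5.17 for library 1 and 4.45 for library 2, with a prior count of 2.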

How the data were processed

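The authors deposited 2 tables of expected counts, that is, estimated and often fractional read counts per RefSeq transcript, not normalized, from poly(A) libraries of TRIzol RNA made with a stranded kit. Per the labels, STAR, Partek and hg38 were used, with versions not given in the sources used here. No transcript sums to less than 10 counts over its table, and 0 columns were left unused. Of the genes matched to RefSeq by symbol and chromosome, 14702 of 14723 and 13716 of 13735 overlapped it on GRCh38.p14. Counts were summed by gene and rounded to whole numbers, since the planned test assumed counts. Each table was fitted with edgeR 4.0.16 under R 4.3.3, using filterByExpr, TMM, glmQLFit and glmQLFTest, and the difference between the 2 effects in all 8 libraries. The steps were tested on simulated data. Lengths and GC content came from GENCODE transcripts, matched to the deposited ones by RefSeq accession.
The 10 genes, the 17 other family genes, the 6 pathway lists and the marker lists were chosen with earlier results of these data known. Pathway genes were named where called, or else the 2 most abundant, of which 1 gene is not reported here. Likeness to ALDH3B1 used genes tested in both tables with a mean of at least 100 counts. Alternatives were other size factors, DESeq2 1.42.0, other filters, the library number as a block, offsets for GC content and length (mgcv 1.9.3), all 8 libraries in 1 fit, and leaving out each library. Protein and binding data were not analysed here. Intervals cover counting error only.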

Additional observations from a re-analysis of the deposited data

How the results depend on the processing

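ALDH3B1 kept its direction and its call in the knockout under all 13 alternatives, and ADH6 kept its direction in all 13 and its call in 10. Over the 10 genes, 122 of 129 fold changes under an alternative were above 0 in the knockout, the 7 others being of ADH5 and ALDH1A1. Only ADH6 of the called genes lost its call, with the library number and offsets together and without either knockout library. With DESeq2 5 of the 10 were called (ALDH3B1, ALDH1B1, ALDH3A2, ALDH6A1 and ADH6), where 15% of all genes were called, against 5.89% with edgeR. ALDH1B1 was also called without Hep3B library 1, where 15.3% of all genes were, and ALDH6A1 without Hep3B library 2, where 8.89% were.
The number of genes called in the knockout was 849. It was 2160 with DESeq2, 518 with at least 10 counts in every library, 438 with all 8 libraries in 1 fit, and 21 to 2298 with each library left out. The 21 were found without SOX4 knockout library 2, 73 without SOX4 knockout library 1, 1322 without Hep3B library 2 and 2298 without Hep3B library 1. Of the calls 76.3% were higher, against 64.5% with offsets for GC content and length and 63.9% with DESeq2. The offsets moved the median of all genes to -0.15 on the log2 scale. Of the other family genes 1 was called (ALDH5A1), 2 with median-of-ratios or upper-quartile factors (ALDH5A1 and ADH1A), 3 with DESeq2, and 0 to 2 with each library left out. The shares of all genes called were 6.55%, 6.2%, 15% and 0.14% to 15.3% in these analyses, against 5.89%. With all 8 libraries in 1 fit the 1 call was ADH1A in place of ALDH5A1, where 3.06% of all genes were called.
The library number was tested as a replicate block because the labels give the same numbers to each pair of conditions, without saying what they share. Deviations of same-numbered libraries correlated at -0.08 for the knockout and 0.873 for the siRNA experiment, and with 2 pairs this does not establish a pairing. With the block, the knockout gave 982 calls (6.81% of all genes), 3 of the 10 genes (ALDH3B1, ALDH1B1 and ADH6) and 2 other family genes (ALDH5A1 and ADH1A), and with the block and offsets 218 calls (1.51%) and 0 family genes, of the 10 only ALDH3B1. Among the pathway genes RARG lost its call with the block (adjusted p = 0.0512 from edgeR), and with the block and offsets BCAT1, ABAT and CBR1 kept theirs. In the siRNA table the number of calls went from 0 to 62 with the block (0.457% of all genes) and to 350 with the block and offsets (2.58%). The block and offsets called ALDH6A1 and 1 other family gene, ALDH18A1. The other alternatives gave 0 calls there. The difference between the 2 effects gave 11 calls, 97 with the block, 1 with at least 10 counts in every library and 0 to 127 with each library left out, and ALDH3B1 was called with the block and without control siRNA library 2 or STAT6 siRNA library 1. Without STAT6 siRNA library 2 the median of all genes was -0.23 on the log2 scale for STAT6 siRNA against control siRNA and 0.14 for the difference between the 2 effects. The causes of these changes were not tested.
With 2 libraries a condition, a library that stood apart could not be tested as an outlier. Values of ADH4, ADH1A, ADH1B and ADH1C in Hep3B rest on 4 counts or fewer, so a change there is limited by depth.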

Other observations

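The 10 genes did not share a single pattern across the 8 libraries. The Pearson r of log2 CPM with ALDH3B1 was 0.814 for ALDH6A1, 0.680 for ADH6 and 0.633 for ALDH3A2, and -0.326 for ALDH1A1 and -0.245 for ADH5, over 8 libraries of 2 tables normalized separately. ALDH1B1 and ALDH2, the mitochondrial acetaldehyde enzymes, correlated at 0.906 with each other. These are descriptions over libraries that share depth and base composition.
LOC100507053, an RNA gene within the ADH cluster, was at 0.397 and 0.369 CPM in Hep3B, against 0.795 and 0.220 in the knockout, too low to test. It was at 0.339 and 0.355 CPM with control siRNA and 0.514 and 0.289 with STAT6 siRNA.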
